A study of Mus musculus with 6 samples.

Results

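The TAM receptors and their ligands, 5 of the 31053 genes in the count table, were examined in bulk RNA sequencing libraries from the cerebellum of WT and KIKO mice. They comprise the ligands Gas6 and Pros1 and the receptor tyrosine kinases Axl, Mertk and Tyro3, and were selected on a measured value, the lower Gas6 of KIKO in the same comparison. Their KIKO and WT values are therefore given as a description, with no test. KIKO (knock-in knock-out) mice, the disease model of the study, carry a knock-in and a knock-out allele of the targeted gene. WT mice are littermates on the C57BL/6 background, and the labels name no other allele and no agent. The paper describes CD45+/CD11b+ cells isolated by magnetic sorting from the cerebellum at the age of 6 mo, whereas the labels give the tissue and genotype and say nothing of sorting, age or sex. Mice given dietary butyrate are a further experiment of the paper, as are microglia cultured from WT and KIKO cerebellum with butyrate in the medium. The sources do not settle which of these experiments the libraries belong to. Libraries of WT replicates 1 and 2 and of KIKO replicates 1, 2 and 3 were used. A further WT sample matched no column of the count table and was not analysed here.

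TAM receptors (named for Tyro3, Axl and Mertk) bind the vitamin K-dependent proteins Gas6 and protein S, the product of Pros1. Once γ-carboxylated, these ligands attach to phosphatidylserine on the surface of dying cells or debris and bridge them to the receptor on a phagocyte. In the brain, Axl and Mertk are known for the clearance of apoptotic cells by microglia and for restraint of their cytokine responses, and Tyro3 is known as the family member most associated with neurons. Gas6 binds all 3 receptors, whereas protein S is a ligand of Tyro3 and Mertk.

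Because Gas6 and Axl were the 2 members whose KIKO libraries all lay below both WT libraries, the sequence around the start site of each is shown, read from RefSeq on GRCm38.p6. The window of Gas6 is chr8:13494486-13494785 and that of Axl is chr7:25788684-25788983, both on the minus strand, from 250 bases before the start site to 50 bases after it. Capitals mark each GC box, the letters GGGCGG on either strand.

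Gas6: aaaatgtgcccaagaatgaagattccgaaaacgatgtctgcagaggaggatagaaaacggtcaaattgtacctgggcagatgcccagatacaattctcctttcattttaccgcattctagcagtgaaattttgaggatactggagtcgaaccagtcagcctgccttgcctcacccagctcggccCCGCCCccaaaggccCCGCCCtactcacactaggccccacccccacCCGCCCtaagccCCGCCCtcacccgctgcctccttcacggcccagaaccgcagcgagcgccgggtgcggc

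Axl: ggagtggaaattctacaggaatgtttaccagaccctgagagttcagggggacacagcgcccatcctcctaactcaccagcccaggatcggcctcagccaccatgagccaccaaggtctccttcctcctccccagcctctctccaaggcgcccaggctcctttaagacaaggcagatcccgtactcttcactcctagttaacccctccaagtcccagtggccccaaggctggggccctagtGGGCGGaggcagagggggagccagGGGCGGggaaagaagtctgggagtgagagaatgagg

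The Gas6 window held 4 GC boxes and the Axl window 2. Those of Pros1, Mertk and Tyro3 held 5, 4 and 6, so all 5 windows had at least 1, as did 35.7% of the 32851 promoter windows of the same length. GC content was 58.3% for Gas6, 60.3% for Axl, 66.7% for Pros1, 66% for Mertk and 73.3% for Tyro3, against a median of 52.7% over all windows. No window of the 5 genes held the letters CCAAT (37.4% of all windows), TATAAA (13.6%), CACGTG (7.15%) or TGANTCA (7.81%) on either strand, which says only that these letters are not in the window. TTCNNNGAA, found in 8.3% of all windows, was present once, in Pros1.

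The deposited counts totalled 1044760 and 1351339 in WT replicates 1 and 2, and 1281661, 1241997 and 1013107 in KIKO replicates 1, 2 and 3. At this depth 3 counts corresponded to between 2.28 and 3.04 normalized CPM, the counts of a gene scaled to a common library total, which covers counting error only. KIKO replicate 2 stood apart: its correlation with the other libraries over all genes tested, on log2(normalized CPM + 1), was between 0.656 and 0.731, whereas the other 4 libraries correlated with each other between 0.877 and 0.925. The fold change of each of the 5 genes is therefore also given without it. The labels do not say whether the libraries came from separate mice, so a p-value measures only the spread between these samples.

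Of the ligands, Gas6 was lower in KIKO, whereas Pros1 was high in 1 KIKO library and low in the other 2. Gas6 (ENSMUSG00000031451, GRCm38 chromosome 8, 13465374 to 13494490, minus strand) encodes the ligand shared by all 3 receptors. Its normalized CPM was 124.5 and 113.8 in WT replicates 1 and 2, and 53.6, 75.7 and 27.4 in KIKO replicates 1, 2 and 3. Thus, every KIKO library lay below both WT libraries, and the lowest of them, replicate 3, was less than 1 in 4 of either WT value. The mean was 119 ± 7.60 (SD, n = 2) for WT and 52.3 ± 24.2 (SD, n = 3) for KIKO, a log2 fold change of -1.18 with a standard error of 0.46. These levels rested on 125 and 150 counts in WT and on 68, 98 and 27 counts in KIKO. In bulk RNA, fewer cells of a type that express a gene and less RNA per cell cannot be told apart. The exons of Gas6 overlap those of Tmem255b on the opposite strand over 34 bases, and the strand setting of the counting is not given in the sources used here.

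Pros1 (ENSMUSG00000022912, chromosome 16, 62854307 to 62929346, plus strand) encodes protein S, which also serves as an anticoagulant in plasma. Its normalized CPM was 66.7 and 88.7 in WT replicates 1 and 2, and 41.0, 185 and 29.4 in KIKO replicates 1, 2 and 3. The groups overlapped because KIKO replicate 2 was the highest of the 5 libraries, while the other 2 KIKO libraries were the lowest. The mean was 77.7 ± 15.6 (SD, n = 2) for WT and 85.0 ± 86.5 (SD, n = 3) for KIKO, so the spread within KIKO was larger than the difference between the genotypes. Its log2 fold change was 0.13 with a standard error of 0.74, and -1.14 with a standard error of 0.35 without KIKO replicate 2.

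**Figure D1:**
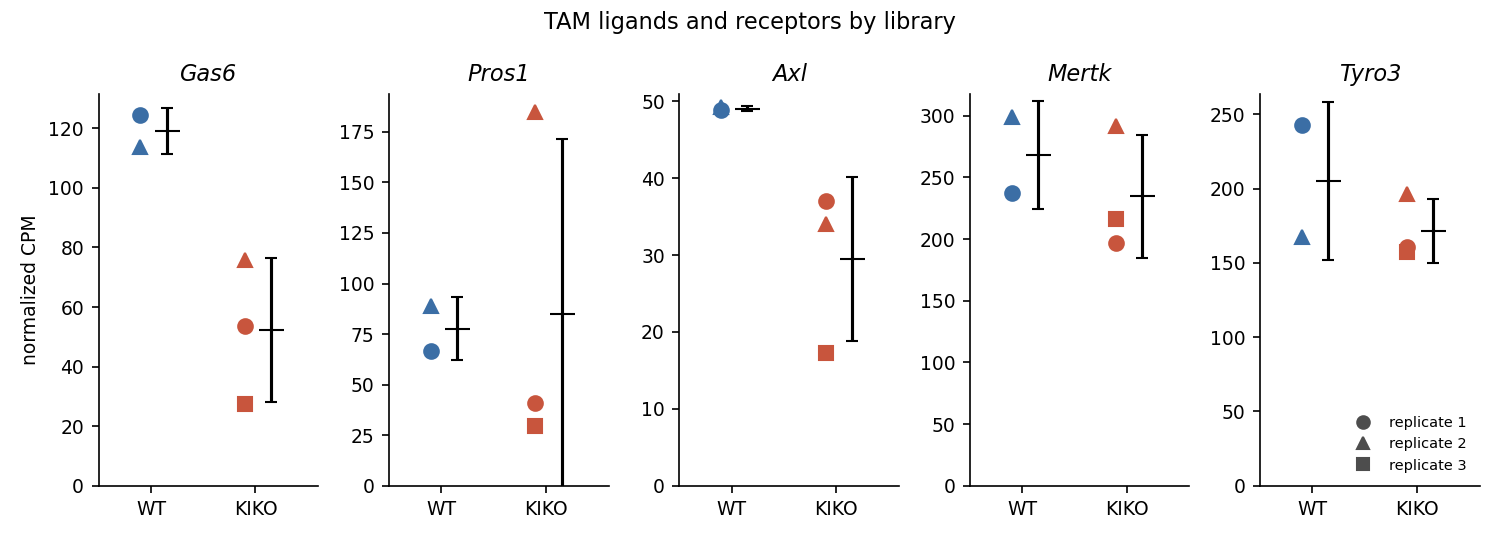
Normalized CPM (vertical axis, from 0, with a scale of its own in each panel) of the TAM ligands and receptors in the 2 WT libraries (blue) and the 3 KIKO libraries (red), with the mean ± SD of each genotype in black. The symbol gives the replicate number, and the lower end of the KIKO bar for Pros1 is cut at 0. For Gas6 and Axl all KIKO points lie below both WT points, and for Pros1 the triangle of KIKO replicate 2 stands at 185.

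The balance of the ligands differed between libraries. Gas6 made up 65.1% of the summed Gas6 and Pros1 counts in WT replicate 1 (exact 95% binomial interval 57.9 to 71.8) and 56.2% in WT replicate 2 (50.0004 to 62.2). In KIKO it was 56.7% (47.3 to 65.7), 29.1% (24.3 to 34.2) and 48.2% (34.7 to 62.0) in replicates 1, 2 and 3. The genotypes overlapped, since KIKO replicate 1 lay above WT replicate 2, and only in KIKO replicate 2 did Pros1 clearly exceed Gas6. The summed ligand level was 191 and 203 normalized CPM in WT, against 94.6, 260 and 56.8 in KIKO. KIKO replicates 1 and 3 were thus below both WT libraries for both ligands, and replicate 2 was below them for Gas6 alone.

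**Figure D2:**
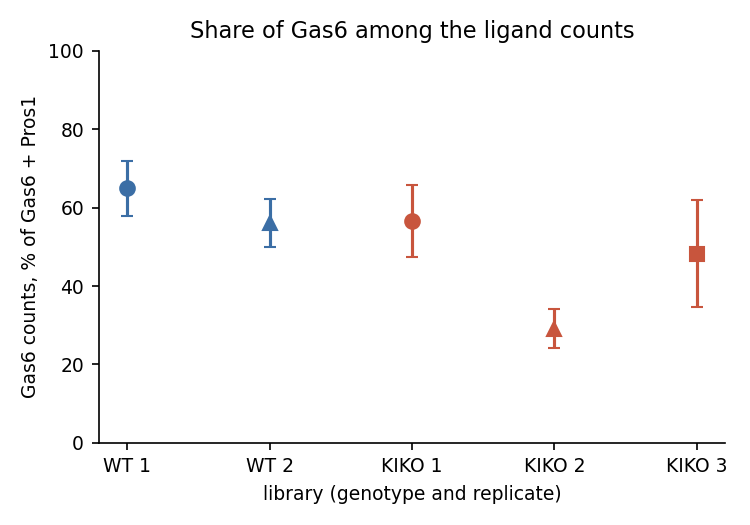
Share of Gas6 among the summed counts of Gas6 and Pros1 (vertical axis, percent) in each library (horizontal axis), with the exact 95% binomial interval, which covers counting error only. KIKO replicate 2, at 29.1%, is the 1 library whose whole interval lies below those of both WT libraries.

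Of the receptors, Axl was lower in every KIKO library than in either WT library, whereas Mertk and Tyro3 overlapped between the genotypes. Axl (ENSMUSG00000002602, chromosome 7, 25757273 to 25788705, minus strand) encodes the receptor with the highest affinity for Gas6, which rises on phagocytes in inflammation. It measured 48.8 and 49.3 normalized CPM in WT replicates 1 and 2, and 37.1, 34.0 and 17.3 in KIKO replicates 1, 2 and 3. The WT values were nearly equal, and KIKO replicate 3 was again the lowest, as for Gas6. The mean was 49.1 ± 0.347 (SD, n = 2) for WT and 29.4 ± 10.7 (SD, n = 3) for KIKO, a log2 fold change of -0.73 with a standard error of 0.48. Counts were low, with 49 and 65 in WT and 47, 44 and 17 in KIKO. In normalized CPM, the exact 95% Poisson interval of KIKO replicate 1, which covers counting error only, was 27.2 to 49.29. Both WT values lay at its upper end, WT replicate 1 just inside and WT replicate 2 just outside.

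Mertk (ENSMUSG00000014361, chromosome 2, 128698956 to 128802894, plus strand) encodes the receptor through which resting macrophages and microglia take up apoptotic cells. Its normalized CPM was 237 and 299 in WT, and 196, 291 and 216 in KIKO replicates 1, 2 and 3. KIKO replicate 2 lay between the WT libraries and the other 2 KIKO libraries below them. The mean was 268 ± 43.7 (SD, n = 2) for WT and 235 ± 50.1 (SD, n = 3) for KIKO, with a log2 fold change of -0.19 and a standard error of 0.37.

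Tyro3 (ENSMUSG00000027298, chromosome 2, 119797733 to 119818104, plus strand) encodes the remaining receptor. It measured 243 and 168 normalized CPM in WT, and 161, 196 and 157 in KIKO. The WT libraries differed from each other more than the genotype means did: 205 ± 53.3 (SD, n = 2) for WT against 172 ± 21.5 (SD, n = 3) for KIKO, a log2 fold change of -0.26 with a standard error of 0.36. None of Pros1, Axl, Mertk and Tyro3 shares annotated exon bases with another gene.

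The receptors summed to 529 and 516 normalized CPM in WT and to 394, 522 and 391 in KIKO. KIKO replicate 2 was level with WT, whereas replicates 1 and 3 were about equally low. Axl contributed 9.23% and 9.56% of this sum in WT, and 9.40%, 6.52% and 4.42% in KIKO replicates 1, 2 and 3. Its share in KIKO replicate 1 thus lay between the WT values, while in the other 2 KIKO libraries Axl was lower than the receptors as a whole.

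**Figure D3:**
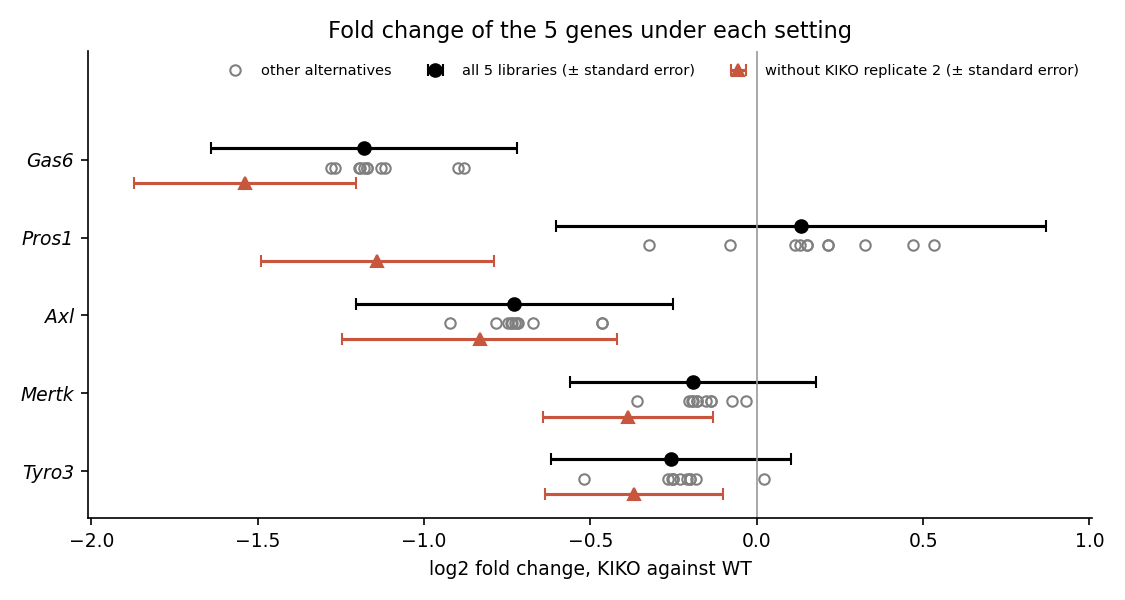
Log2 fold change of KIKO against WT (horizontal axis) for each of the 5 genes, from the fit to all 5 libraries (black, ± standard error), without KIKO replicate 2 (red triangles, ± standard error) and under the other 11 processing alternatives (open circles). Gas6 and Axl lie below 0 at every point, from -1.54 to -0.88 for Gas6 and from -0.92 to -0.46 for Axl, whereas Pros1 falls on both sides of 0.

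Without KIKO replicate 2, the log2 fold changes of all 5 genes were negative. Gas6 measured -1.54 (standard error 0.33), Axl -0.83 (0.41), Mertk -0.39 (0.26) and Tyro3 -0.37 (0.27), beside the value of Pros1 given above. Gas6 was thus lower with and without the library that stood apart, and Pros1 changed its sign. Across all 12 alternatives, Gas6, Axl and Mertk stayed negative, the last between -0.39 and -0.032, whereas Tyro3 reached 0.023 without WT replicate 1. For Gas6 and Axl the steady sign is no test. Every KIKO library lay below both WT libraries, and the alternatives refit the same counts.

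Over the whole table, 10889 genes were tested with the quasi-likelihood test of edgeR. With thresholds of 0.75 on the size of the log2 fold change and 0.05 on the unadjusted p, 131 genes passed (1.2%), 78 of them higher (0.716%) and 53 lower (0.487%) in KIKO. No gene had an adjusted p under 0.05 (0%), against 131 with an unadjusted p under 0.05, and DESeq2 and limma also gave 0. All 5 TAM genes passed the filter on low counts, and Gas6, whose lower value chose the set, was the 1 of them among the 53 lower genes, which is no test of it. Gas6 and Axl were the 2 of 5 with all KIKO libraries below both WT libraries, a pattern of 8.51% of all genes tested (8.2% had the opposite one). Since Gas6 chose the set from this comparison, nothing is read from either count. With 2 against 3 libraries, an exact permutation test of a single gene cannot give a two-sided p below 0.1.

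The order of the genes among themselves depended on whether exon length was taken into account. Without length, the mean over the 5 libraries was highest for Mertk (248 normalized CPM), followed by Tyro3 (185), Pros1 (82.1), Gas6 (79.0) and Axl (37.3). Per kilobase of annotated exon, it was 57.2 ± 10.5 (SD, n = 5) for Mertk, 31.0 ± 15.9 for Gas6, 29.9 ± 5.79 for Tyro3, 20.1 ± 15.1 for Pros1 and 7.41 ± 2.61 for Axl. Per kilobase, Mertk was the highest and Axl the lowest of the 5 genes in every library. The means of Gas6, Tyro3 and Pros1 did not differ beyond their spread, and the SD of Pros1 reached down to the level of Axl. In WT alone, Gas6 ranked second per kilobase (46.8 ± 2.98, SD, n = 2) after Mertk (61.8 ± 10.1). In KIKO it ranked after Tyro3 (27.7 ± 3.48, SD, n = 3) and next to Pros1 (20.8 ± 21.2), at 20.5 ± 9.50. The sources name both a digital mRNA sequencing service and a stranded kit, which does not settle whether reads cover whole transcripts, so both scales are given.

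The genes most alike to each member in pattern over the 5 libraries were found among about 4000 genes with a mean of at least 50 normalized CPM. They are given as a description, since all genes of a library share its depth and composition. For Gas6 they were Neurl3 (Pearson r = 0.990), Ndel1 (0.983) and Mapk12 (0.983), and 16 genes reached 0.95. Ndel1, a dynein regulator, was also among the genes closest to Axl (0.985), beside Lhfp (0.986) and Il1a (0.981), which encodes the cytokine interleukin-1α. Neurl3 measured 71.7 and 71.3 normalized CPM in WT and 52.8, 60.3 and 45.7 in KIKO, the same order of libraries as Gas6. The 2 members resembled each other as well, with r = 0.95 between Gas6 and Axl, the highest of the 10 pairs.

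Pros1 followed Hmgn1 (0.999), Ifrd1 (0.999) and the splicing factor gene Srsf1 (0.998), with 190 genes at 0.95 or above. Ifrd1 measured 738 and 856 normalized CPM in WT and 582, 1154 and 519 in KIKO, so these genes share the high value of KIKO replicate 2. Mertk was closest to the mitochondrially encoded mt-Nd4 (0.996), the microtubule protein gene Map4 (0.994) and Prr18 (0.994), and Tyro3 to BC005624 (0.986), Rnf166 (0.984) and Acbd4 (0.981). Among the members, Pros1 and Mertk (0.847) were the next most alike pair, and Mertk and Tyro3 (0.245) the least.

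Around the 5 genes, 8 lists of the pathway were followed, 136 genes in all, of which 117 were tested. None passed the thresholds in edgeR, and none had an unadjusted p under 0.05 (the smallest was 0.0504). DESeq2 called 2 of the 117, where 1.25% of all genes passed, and limma 0, where 1.16% passed. The median log2 fold change over the 117 genes was 0.088, against 0.022 over all genes tested. The genes named below are the 3 most abundant of each list, given as levels. Of these, Rac1, Jak1, Calu, Furin, Timp3, Adam17, Xkr6, Atp8a1, Cx3cr1 and Lamp1 share exon bases with a gene on the opposite strand, and Vkorc1 and Scd2 with another on the same strand.

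Proteins that carry the signal from the receptors (18 of 19 tested, 12 with a positive and 6 with a negative log2 fold change, median 0.076) were led by Rac1, a small GTPase of engulfment, Ptpn1 and Pik3ca. Rac1 had 192 and 243 normalized CPM in WT and 164, 542 and 160 in KIKO, high in replicate 2 as Pros1 was. Pik3ca had 116 and 115 in WT and 139, 232 and 185 in KIKO, all above WT. Its log2 fold change was 0.69 with a standard error of 0.38. The feedback genes that TAM receptors are known to use against cytokine signals (8 of 11 tested, 5 positive and 3 negative, median 0.032) were led by Nfkbia, the inhibitor of NF-κB, Jak1 and Socs3. Socs3, a suppressor of cytokine receptor signalling, measured 153 and 98.6 in WT and 109, 322 and 49.7 in KIKO. Its groups overlapped, again with the highest value in KIKO replicate 2.

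The vitamin K cycle and γ-carboxylation, on which ligand activity depends, had 5 of 8 genes tested, 3 positive and 2 negative, with a median of 0.50. They were led by Furin, a protease of the secretory pathway, Calu and Vkorc1, the epoxide reductase that warfarin inhibits. Vkorc1 measured 7.97 and 22.8 normalized CPM in WT and 22.1, 92.0 and 28.4 in KIKO, its highest value standing in replicate 2. The log2 fold change was 1.61 with a standard error of 0.78. Calu, an inhibitor of the carboxylase, measured 45.8 and 82.7 in WT and 30.8, 37.9 and 42.6 in KIKO, all below WT, with a log2 fold change of -0.80 and a standard error of 0.44. Furin measured 51.8 and 56.9 in WT and 74.1, 101 and 64.9 in KIKO, all above WT. Its log2 fold change was 0.56 with a standard error of 0.39.

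Receptor shedding (6 of 7 tested, 4 positive and 2 negative, median 0.29) was led by the inhibitors Timp2 and Timp3 and by Adam17, a sheddase that cuts Mertk and Axl. Adam17 measured 52.8 and 54.6 normalized CPM in WT and 45.0, 230 and 57.8 in KIKO. Only KIKO replicate 2 was far from WT. Exposure of phosphatidylserine (11 of 14 tested, 8 positive and 3 negative, median 0.26) was led by Xkr6, of a family of which some members scramble lipids, the flippase subunit gene Tmem30a and the flippase gene Atp8a1. Xkr6 measured 489 and 589 in WT and 323, 13.9 and 244 in KIKO, a log2 fold change of -1.48 with a standard error of 0.91. All KIKO libraries were below WT, and KIKO replicate 2 was the lowest by far.

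Other engulfment receptors and bridges (29 of 34 tested, 20 positive and 9 negative, median 0.12) were led by C1qa and C1qb, subunits of the complement component that tags material for uptake, and by Cx3cr1, the fractalkine receptor of microglia. C1qa measured 806 and 1125 normalized CPM in WT and 746, 1346 and 844 in KIKO. Cx3cr1 measured 925 and 894 in WT and 651, 1184 and 876 in KIKO. Both overlapped between the genotypes, and their log2 fold changes were 0.020 (standard error 0.44) and -0.0097 (0.42). The engulfment machinery (24 of 26 tested, 13 positive and 11 negative, median 0.065) was led by Lamp1, Rab14 and Cdc42, with log2 fold changes of -0.13, 0.20 and 0.19. The LXR and lipid efflux genes, which handle the lipids of engulfed cells (16 of 17 tested, 10 positive and 6 negative, median 0.13), were led by Apoe, Npc2 and Scd2. Apoe, the main lipid carrier of the brain, measured 1555 and 1810 in WT and 1199, 1358 and 1303 in KIKO, below WT in each KIKO library, with a log2 fold change of -0.39 and a standard error of 0.39. Npc2 went the other way, with 263 and 274 in WT and 314, 454 and 290 in KIKO, above WT in each KIKO library. Its log2 fold change was 0.39 with a standard error of 0.38.

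**Figure D4:**
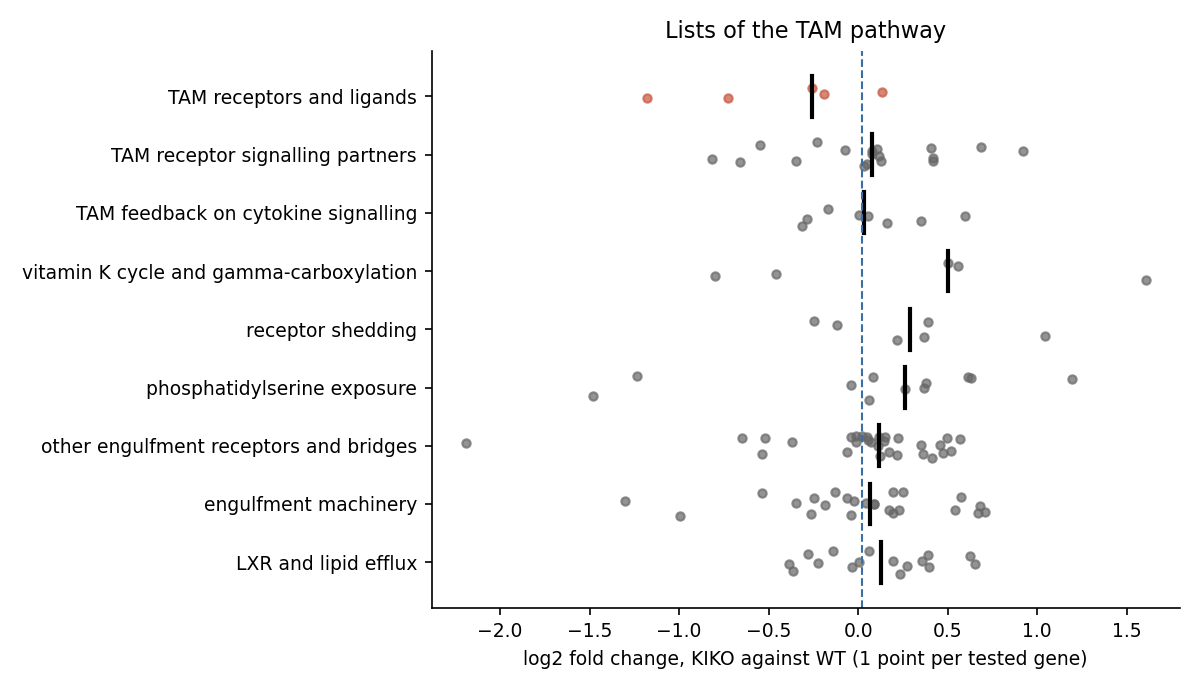
Log2 fold change of KIKO against WT (horizontal axis, 1 point per gene tested) for the 5 TAM genes (red) and the 8 lists of the pathway (grey). Black bars are list medians, the dashed blue line is the median of all genes tested (0.022), and the vertical scatter within a row carries no value. The median of the TAM genes is -0.26 and those of the 8 lists lie between 0.032 and 0.50.

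Without KIKO replicate 2, 6 of the 114 pathway genes then tested passed the thresholds, all of them lower in KIKO. Of all genes tested in that setting, 6.45% passed, 2.94% higher (305 genes) and 3.51% lower (364 genes). They were Xkr6 (log2 fold change -0.93), Itgam (-0.79), a subunit of the complement receptor also known as CD11b, Itgb3 (-1.88), a subunit of an integrin that binds bridged apoptotic cells, Lgals3 (-0.87), which encodes galectin-3, a reported ligand of Mertk, Calu (-0.83) and Tnfaip3 (-0.83), an inhibitor of NF-κB. These were singled out after their values were seen, and their adjusted p in edgeR lay between 0.243 and 0.578. Itgam shares 3450 exon bases with another gene on the same strand. Itgb3 rested on few counts, 11 and 26 in WT and 2 and 7 in KIKO replicates 1 and 3. The list medians were then between -0.23, for the cytokine feedback genes, and 0.51, for the vitamin K genes, with that of the other engulfment receptors at -0.22.

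Markers of the cells that could carry these transcripts were read beside the 5 genes. Of 117 marker genes, 91 were tested and 2 passed the thresholds, beside 1.2% of all genes tested. They were Gfap, an astrocyte gene (higher in KIKO), and Kdr, an endothelial gene (lower). Both were named after their values were seen. The microglia markers, all 15 tested, were led by Csf1r and summed to 5867 and 7396 normalized CPM in WT and to 5165, 13085 and 5866 in KIKO replicates 1, 2 and 3. Microglia transcripts were thus abundant in every library, and most abundant in KIKO replicate 2, whereas Gas6 was lower there than in WT. Dividing by this sum lowers the ratio of any gene most in KIKO replicate 2, where the sum was highest. Relative to this sum, Gas6 was 2.12% and 1.54% in WT and 1.04%, 0.579% and 0.467% in KIKO, all below WT. Mertk was 4.04% in both WT libraries and 3.80%, 2.23% and 3.68% in KIKO, also all below WT, although its normalized CPM overlapped. The share of all genes with this pattern relative to the sum was not determined, so nothing is read from it for Gas6 or Mertk. Axl was 0.832% and 0.667% in WT and 0.718%, 0.260% and 0.294% in KIKO, and overlapped, as did Pros1 and Tyro3.

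The labelled tissue showed its own cells as well. Markers of granule neurons (led by Rbfox3) summed to 5351 and 3693 normalized CPM in WT and to 5196, 2929 and 5421 in KIKO. Those of Purkinje neurons (Itpr1) were 622 and 424 against 950, 474 and 842, with all 9 log2 fold changes positive (median 0.59). Choroid plexus markers (Ttr) were 12982 and 14105 in WT and 9550, 15700 and 7976 in KIKO, with 8 of 9 genes negative (median -0.58). Ttr alone made up between 80.7% and 88.9% of that sum, and 4 of the 9 genes, Ttr among them, were highest in KIKO replicate 2. The other pattern, all KIKO libraries below both WT libraries as for Gas6, was seen in 4 of the 9 genes, Enpp2, Otx2, Folr1 and Aqp1, named after their values were seen, beside 8.51% of all genes tested. Enpp2, which encodes the secreted enzyme autotaxin, measured 2199 and 2240 in WT and 1542, 1396 and 1246 in KIKO. Oligodendrocyte markers (8 genes) summed to 2047 and 6752 in WT and to 1992, 10023 and 3340 in KIKO, with the highest value in replicate 2. Markers of astrocytes and Bergmann glia (Slc1a3) were 343 and 558 against 550, 589 and 468.

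Endothelial cells, a further source of Gas6 and Pros1, had marker sums (led by Flt1) of 491 and 944 normalized CPM in WT and 521, 876 and 580 in KIKO. Gas6 relative to this sum was 25.4% and 12.05% in WT and 10.3%, 8.65% and 4.72% in KIKO, again all below WT. The share of all genes with this pattern relative to the endothelial sum was not determined either. The other 4 TAM genes overlapped between the genotypes relative to this sum, Axl among them with 9.94% and 5.22% in WT and 7.11%, 3.88% and 2.97% in KIKO. Pericyte and smooth muscle markers (Rgs5) were 254 and 373 against 300, 401 and 262, and fibroblast markers (Dcn) 95.6 and 107 against 108, 168 and 122, above WT in every KIKO library. Of the 4 fibroblast markers tested, 2 had a positive and 2 a negative log2 fold change, Dcn among the latter (-0.15). Border macrophage markers (Stab1) were 263 and 334 against 286, 454 and 264, and erythroid markers (Hbb-bs) 1031 and 2749 against 1896, 2920 and 1673. Monocyte and neutrophil markers (S100a9, with Ly6c2 and Plac8 at 0) were 20.9 and 41.7 against 106, 32.5 and 46.7. Lymphocyte markers, led by Nkg7, summed to at most 8.34 in a library, with Cd3e, Cd3d, Cd79a, Ms4a1 and Cd8a at 0 throughout. Whether the makeup of the libraries had a part in the lower Gas6 or Axl was not tested.

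**Figure D5:**
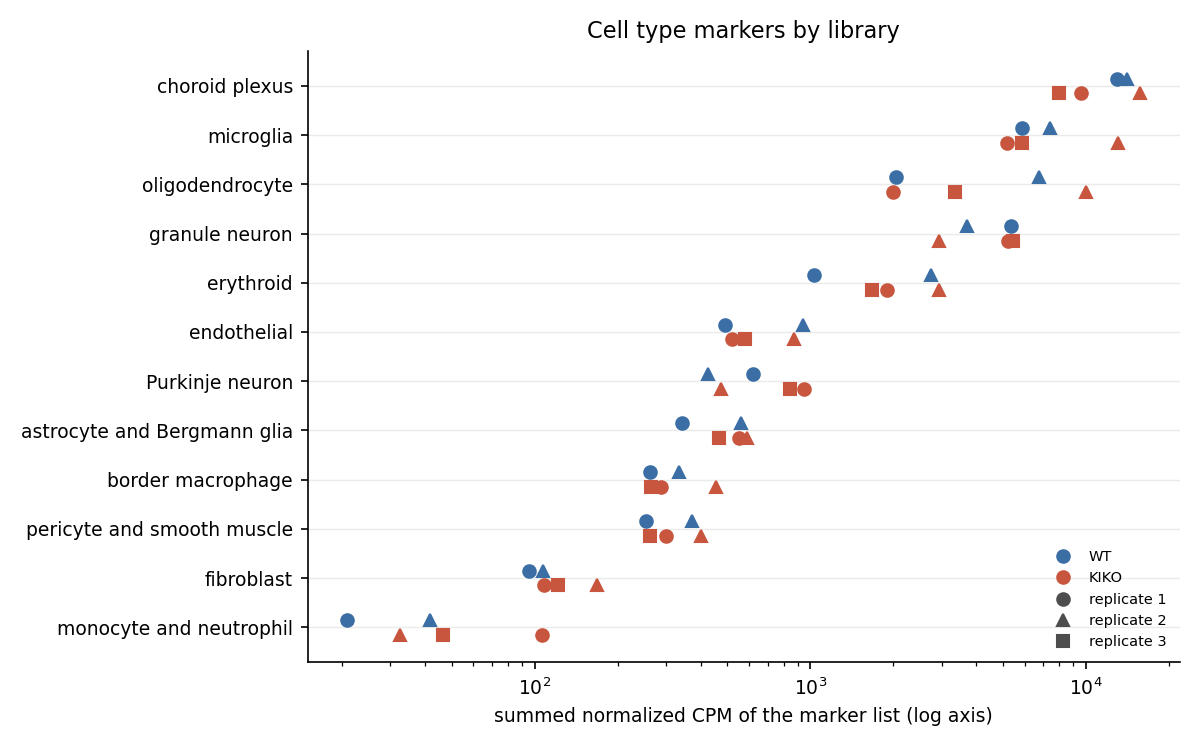
Summed normalized CPM of 12 marker lists (horizontal log axis) in the WT (blue) and KIKO (red) libraries, with the replicate number as the symbol; lymphocyte markers, near 0, are not drawn. KIKO replicate 2 (red triangle) is highest for choroid plexus, microglia, oligodendrocyte, erythroid, astrocyte, border macrophage, pericyte and fibroblast markers and lowest for those of granule neurons.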

How the data were processed

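Bulk RNA sequencing of WT and KIKO cerebellum was read from tables of the whole series. The authors used Trimmomatic for trimming, HISAT2 for alignment (mm10) and featureCounts for counting. The deposited values are raw counts per gene, and log2 values that equal log2(count / DESeq2 size factor + 1). Annotation, strand and multi-mapping settings are not given in the sources used here. Columns named for butyrate (2 in each file) match no sample and were not used.

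Names and exon lengths came from GENCODE on GRCm38 (30934 of 31053 genes, 99.6%). The analysis used edgeR 4.0.16 under R 4.3.3 (filterByExpr at its minimum count, 10, and minimum total, 15, TMM, quasi-likelihood test, two-sided, Benjamini-Hochberg adjustment), which kept at least 98.6% of each library's counts. Thresholds were a log2 fold change of 0.75 and p under 0.05. Normalized CPM (from edgeR) is relative to the TMM-scaled library total. Alternatives were DESeq2 1.42.0, limma 3.58.1 on the deposited log2 values, RLE factors, library size alone, other filters, a replicate block and leaving out each library. The fit was tested on simulated data. The design had assumed 3 WT libraries.

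The 5 genes and the lists were chosen with earlier results of these data known. Genes were named by rule: the 5 genes, pathway genes past the thresholds, the 3 most abundant of each pathway list, the 3 most alike to each member by Pearson r of log2(normalized CPM + 1), and the most abundant marker of each cell type with markers at 0. Some results are left out of the text.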

Additional observations from a re-analysis of the deposited data

How the results depend on the processing

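Gas6, Axl and Mertk kept a negative log2 fold change in all 12 alternatives. For Gas6 and Axl, leaving out a library could hardly turn the sign, as every KIKO library lay below both WT libraries. Pros1 was -0.32 with limma and between -1.14 (without KIKO replicate 2) and 0.53 (without KIKO replicate 3) when each library was left out, turning negative without WT replicate 1 as well (-0.079). Tyro3 ranged from -0.52 to 0.023, the latter without WT replicate 1. Genes past the thresholds, 131 in the fit to all libraries, were 383 with all genes of at least 1 count, 271 with the replicate block (109 higher and 162 lower), 136 with DESeq2 (96 and 40), and from 56 (without WT replicate 1) to 669 (without KIKO replicate 2) when a library was left out. Genes with an adjusted p under 0.05 numbered 1 with all genes of at least 1 count and 0 to 5 when a library was left out, the 5 without KIKO replicate 2. Pathway genes past the thresholds were 4 of 134 with all genes of at least 1 count (2.28% of all genes passed there), 3 of 117 with the replicate block (2.49%), 2 of 117 with DESeq2 (1.25%) and 0 to 6 when a library was left out. The pathway genes called in these alternatives outside the 6 lower ones without KIKO replicate 2 were Vkorc1, Adam17 and Pik3c3. The cause was not tested. Leaving out a WT library leaves 1, whose spread is assumed to be that of KIKO.

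The replicate numbers come from the labels, and only numbers 1 and 2 are shared. Deviations from the group means correlated at 0.17 for number 1 and 0.22 for number 2, and those of 2 WT libraries mirror each other, so the numbers were not taken as pairs. With the replicate block, Gas6 was -0.90, Axl -0.47, Pros1 0.21, Mertk -0.15 and Tyro3 -0.18. Number 3 has no WT library here, so KIKO replicate 3 did not inform the genotype difference in that fit. Its values for Gas6 and Axl were close to those without KIKO replicate 3 (-0.88 and -0.46). With 1013107 to 1351339 counts per library, Axl rests on 17 to 65 counts, which limits its precision.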
